A study of Mus musculus with 43 samples.

Results

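Ndufa12, its processed pseudogene Gm15920, the chromosome 10 genes Cfap54, Nr2c1, Vezt, Metap2, Tmcc3 and Plxnc1 around it, and the further chromosome 10 pair Tdg and Gm9855 were examined in mouse brain RNA-seq. These 10 genes are 10 of the 55804 gene rows of each deposited table, and they were found by matching each row's Ensembl gene identifier to its symbol in GENCODE M21. They were chosen by their measured TPM levels in the APP/TAU table, which had been seen to differ between wild type and APP/TAU libraries, so their levels and fold changes in that table are given as a description, and counts of members that pass a threshold there are not evidence about them. The AppNLGF table was not used for that choice, and its comparisons carry adjusted p-values.

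The APP/TAU table holds brain total RNA from 11-month-old mice in 3 groups of 5 libraries. They are wild type mice given vehicle, APPV717I::TAUP301L double transgenic mice (mutations V717I in human APP and P301L in human TAU) given vehicle, and the same transgenic mice given CDDO-2P-Im (2P-Im), a synthetic triterpenoid that activates NRF2. The AppNLGF table holds 6-month-old mice, with 4 libraries from wild type mice given vehicle, 11 from App NLGF knock-in mice given vehicle and 13 from knock-in mice given 2P-Im. Oral doses of 30 µmol/kg were given 3 times a week, for 2 weeks to the APP/TAU mice and for 4 weeks to the knock-in mice, and the vehicle was DMSO, Cremophor EL and PBS. The sources used here do not give the brain region, the strain background, the promoter of each transgene or whether each library is a separate mouse. Genotype and strain background therefore cannot be told apart in any comparison with wild type, and p-values measure the spread between libraries, which may be technical. In bulk tissue, fewer cells of a type and less RNA per cell cannot be told apart either.

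Ndufa12 is an accessory subunit of mitochondrial complex I, the first enzyme of the respiratory chain, which passes electrons from NADH to ubiquinone and pumps protons. A processed pseudogene is a reverse-transcribed copy of a messenger RNA that was inserted elsewhere in the genome, without introns and usually without a promoter of its own. Tdg, thymine DNA glycosylase, starts base excision repair at G:T mismatches and removes the oxidised forms of 5-methylcytosine during DNA demethylation. Short reads from a parent gene and from a near-identical copy differ only at the few bases where the sequences differ, so a quantifier can move reads between the rows of such a pair.

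Gm15920 lies at chr5:130188395-130188796 (GRCm38, plus strand), inside an intron of Rabgef1 on the same strand, and overlaps no exon of that gene. RefSeq names it Ndufa12-ps. Its 402 bases matched coding bases 37 to 438 of the Ndufa12 transcript of 1110 bases at 400 positions (99.5%). Both differences, A99G and T378C, counted from 1 at the first base of the copy with the parent's base first, fall on the third base of a codon and leave the amino acid unchanged. They lie in codons 45 and 138, in exons 2 and 4 of the 4 exons of Ndufa12. The sequences around both bases are shown because only reads across them can separate the 2 genes inside the copied stretch. All are written 5′ to 3′ on the gene's strand from GENCODE M21 transcripts, and the capital marks the differing base.
Ndufa12, chr10:94199968-94200028: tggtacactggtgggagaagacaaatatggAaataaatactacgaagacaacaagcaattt
Gm15920, chr5:130188463-130188523: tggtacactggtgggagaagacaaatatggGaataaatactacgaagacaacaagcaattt
Ndufa12, chr10:94220807-94220861: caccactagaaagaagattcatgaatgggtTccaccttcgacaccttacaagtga
Gm15920, chr5:130188742-130188796: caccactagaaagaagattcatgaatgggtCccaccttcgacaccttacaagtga

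Of the 372 words of 31 bases in Gm15920, 56 (15.1%) are absent from every Ndufa12 transcript, and 0 of these 56 occur in a transcript of any other gene. Gm9855 lies at chr10:42054113-42055306 (minus strand), overlaps no other annotated gene, and RefSeq names it Tdg-ps2. Its 1194 bases cover the whole coding sequence of the Tdg transcript of 2959 bases and match it at 1185 positions (99.2%). Of its 9 differences, 4 (A855G, T993C, T1056C and G1101A) leave the amino acid of the parent unchanged. The other 5 (A98C, G877A, G879C, G1084A and A1090G) lie in codons whose amino acid differs in the copy. Of these, G877A and G879C fall in the same codon, 293, where G879C on its own would leave the amino acid unchanged. In Gm9855, 193 of 1164 words (16.6%) are absent from Tdg transcripts, and 82 of these 193 occur in other genes, so its row is less clearly its own than that of Gm15920. The stretch below spans A855G, G877A and G879C, which fall in 1 exon of Tdg and are in capitals.
Tdg, chr10:82647293-82647377, plus strand: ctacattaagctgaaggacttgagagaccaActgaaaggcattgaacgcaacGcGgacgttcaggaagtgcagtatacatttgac
Gm9855, chr10:42054398-42054482, minus strand: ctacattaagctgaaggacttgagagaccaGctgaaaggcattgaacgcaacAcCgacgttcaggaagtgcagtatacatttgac

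Levels are TPM, a relative abundance per transcript length, of which the gene rows held 84.9 to 90.8% per library in the APP/TAU table and 88.5 to 91.4% in the AppNLGF table. The files give no read counts, so the depth behind each value is unknown. Fold changes are differences of mean log2(TPM + 1) with the standard error from limma fitted to all genes. The most abundant row of the APP/TAU table, ENSMUSG00000118866, took 30.1% ± 3.72 (SD, n = 5) of all TPM in wild type, 22.0% ± 6.59 with vehicle and 29.5% ± 1.54 with 2P-Im in the transgenic mice. Beside it, the median fold of all 17592 genes tested was 0.18 for APP/TAU vehicle against wild type, -0.01 for APP/TAU 2P-Im against wild type and -0.19 for 2P-Im against vehicle. A fold of a member is to be read against those shifts. Values after median-ratio scaling, which brings the 3 medians to within 0.01 of 0, are therefore given as well.

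Gm15920 was near 0 in wild type brain and well above 10 TPM in every APP/TAU library. It was 0, 1.05, 1.37, 0.872 and 0 TPM in wild type replicates 1 to 5, 22.0, 19.2, 34.8, 34.1 and 22.4 TPM in APP/TAU vehicle, and 30.6, 19.9, 15.3, 23.5 and 34.0 TPM in APP/TAU 2P-Im. The lowest APP/TAU library, at 15.3 TPM, was far above the highest wild type library, at 1.37 TPM, and the vehicle and 2P-Im libraries overlapped over most of their range. Group means were 0.659 ± 0.627, 26.5 ± 7.39 and 24.7 ± 7.66 TPM (SD, n = 5 each). The log2 fold against wild type was 4.10 ± 0.27 (SE) with vehicle and 3.99 ± 0.27 with 2P-Im, and it depends on the constant added before the logarithm, since it was 5.87 ± 0.65 with vehicle when 0.1 TPM was added. Between 2P-Im and vehicle it was -0.11 ± 0.27.

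Its parent was lower in the same libraries. Ndufa12 was 119, 111, 129, 158 and 116 TPM in wild type, 94.5, 118, 94.5, 103 and 100.3 TPM in APP/TAU vehicle, and 106, 108, 89.3, 103 and 89.3 TPM in APP/TAU 2P-Im. All 5 libraries of the 2P-Im group and 4 of 5 of the vehicle group lay below every wild type library, and replicate 2 of the vehicle group lay inside the wild type range. Means were 126.5 ± 18.7, 102 ± 9.70 and 99.0 ± 9.11 TPM. The log2 fold against wild type was -0.30 ± 0.10 with vehicle and -0.34 ± 0.10 with 2P-Im, and after median-ratio scaling -0.51 ± 0.06 and -0.33 ± 0.06. On the scaled levels all 10 APP/TAU libraries were below all 5 wild type libraries, which spanned 121 to 140.3, against 83.4 to 103 with vehicle and 98.7 to 114 with 2P-Im. Between 2P-Im and vehicle the fold was -0.04 ± 0.10 as deposited and 0.18 ± 0.06 scaled, so its sign depends on the scaling.

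**Figure D1:**
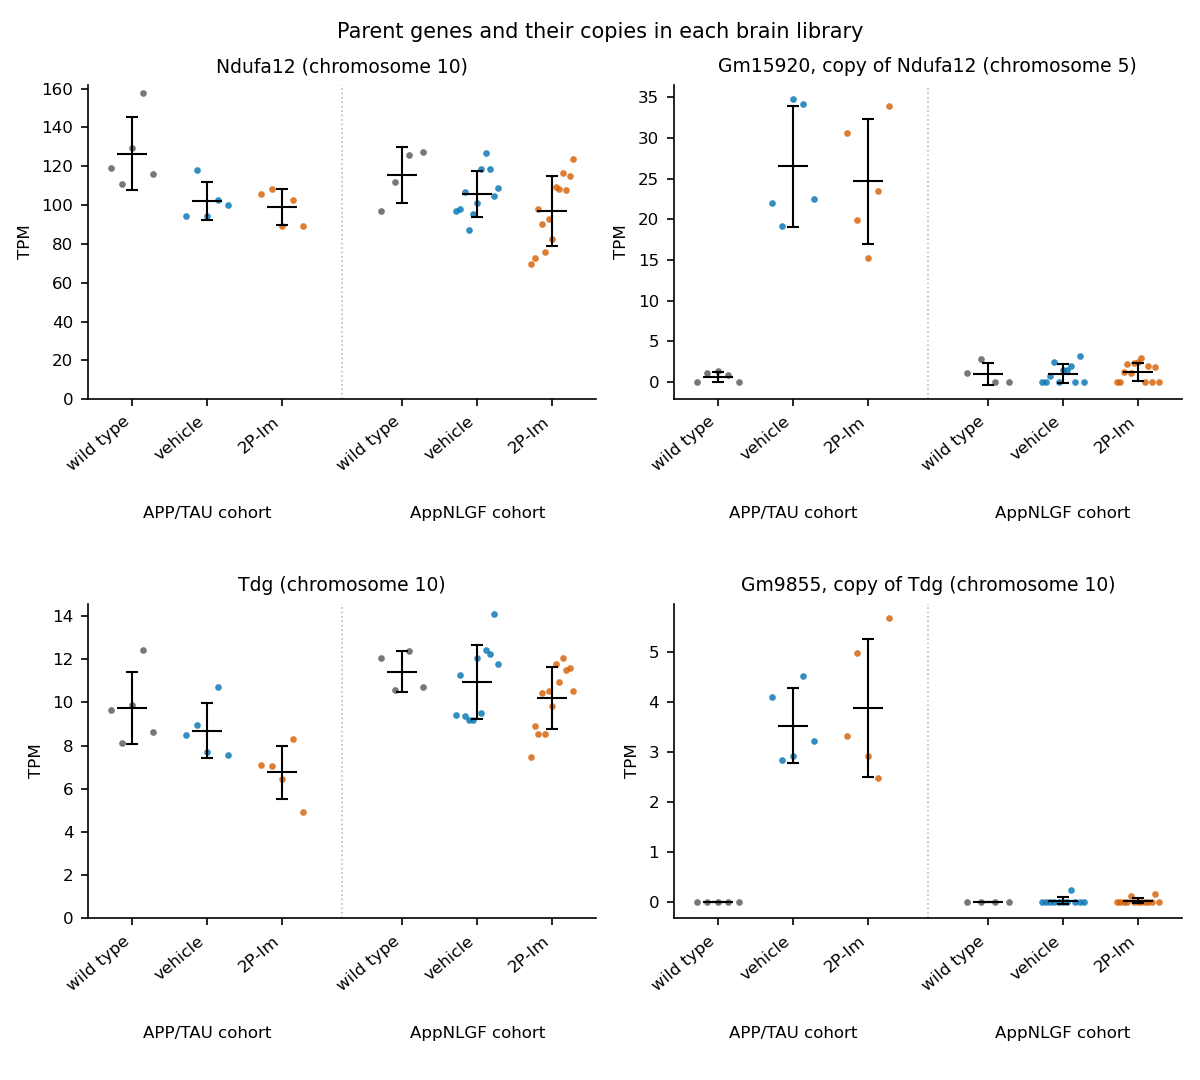
TPM of Ndufa12, Gm15920, Tdg and Gm9855 in each library of the APP/TAU and AppNLGF cohorts, by group, with 1 point per library and a bar at the group mean ± SD. In the APP/TAU cohort both copies sit at or near 0 in wild type (at most 1.37 TPM) and above it in all 10 APP/TAU libraries. Ndufa12 is lower in 9 of those 10 than in any wild type library of that cohort.

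The summed TPM of Ndufa12 and Gm15920 differed between the 3 groups by less than the spread within them. The sum was 127 ± 18.9 TPM in wild type, 128 ± 8.99 TPM in APP/TAU vehicle and 124 ± 11.7 TPM in APP/TAU 2P-Im (SD, n = 5 each). The log2 fold of the sum against wild type was 0.02 ± 0.10 with vehicle and -0.03 ± 0.11 with 2P-Im, and the groups overlapped. After median-ratio scaling the fold of the sum with vehicle was -0.18 ± 0.08 and that with 2P-Im was -0.02 ± 0.07. The copy held 0.508% ± 0.500 of the sum in wild type, 20.6% ± 5.29 with vehicle and 19.8% ± 5.34 with 2P-Im, and this share does not depend on scaling between libraries. It ran from 0 to 1.05% in wild type and from 13.9 to 27.6% over the 10 APP/TAU libraries. TPM gives a short transcript more weight per read, and the copy has 402 bases against the parent's 1110. Weighted by these lengths, the copy held 0.185% ± 0.182 in wild type, 8.67% ± 2.55 with vehicle and 8.27% ± 2.58 with 2P-Im, and the length-weighted pair in units of parent TPM was 127 ± 18.8, 112 ± 8.76 and 108 ± 9.44 TPM. Whether reads of Ndufa12 were assigned to Gm15920 was not tested.

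Rabgef1, a guanine nucleotide exchange factor for the endosomal GTPase Rab5 whose intron holds Gm15920, showed no such separation. It was 13.4 ± 2.14 TPM in wild type, 15.0 ± 1.00 TPM in APP/TAU vehicle and 13.0 ± 1.02 TPM in APP/TAU 2P-Im (SD, n = 5 each). Its fold with vehicle against wild type was 0.16 ± 0.10 (limma, adjusted p = 0.305) and -0.04 ± 0.07 after median-ratio scaling (adjusted p = 0.832).

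**Figure D2:**
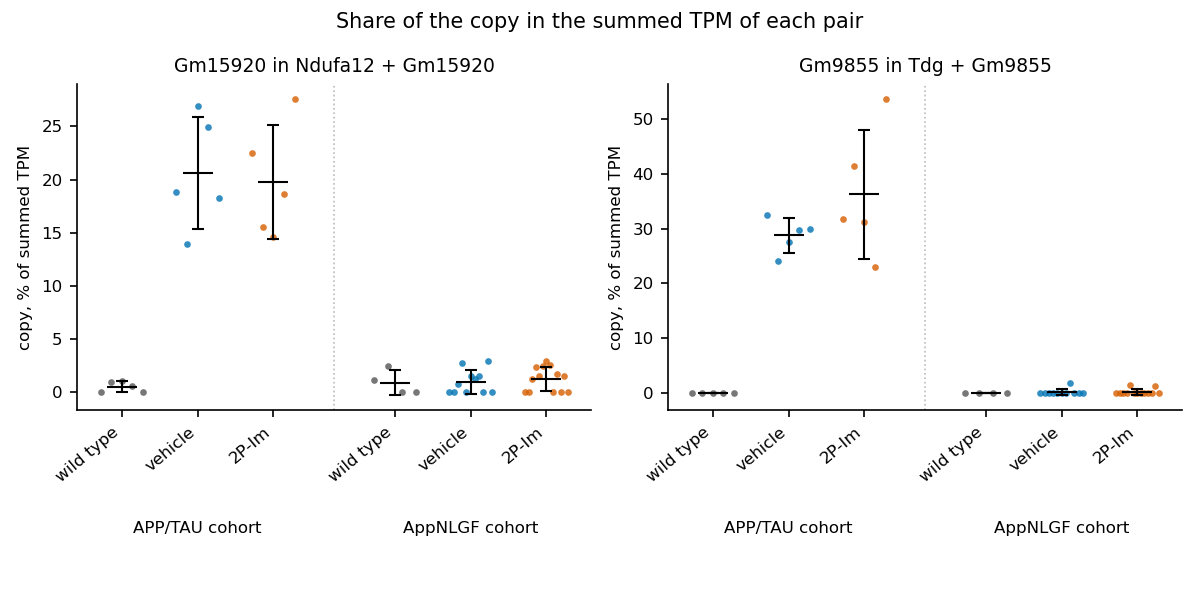
Share of the copy in the summed TPM of each pair, in percent, in every library of the 6 groups, with 1 point per library and bars at the group mean ± SD. The Gm15920 share is 13.9 to 27.6% in the 10 APP/TAU libraries and at most 2.95% in wild type and AppNLGF libraries, and the Gm9855 share is 23.0 to 53.6% against at most 1.80%.

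The copy of the second pair, Gm9855, was listed at 0 in all 5 wild type libraries. It was 4.10, 2.85, 2.93, 4.54 and 3.23 TPM in APP/TAU vehicle and 3.32, 4.99, 2.92, 2.49 and 5.69 TPM in APP/TAU 2P-Im, with means of 3.53 ± 0.750 and 3.88 ± 1.39 TPM. Every APP/TAU library was above every wild type library, the vehicle and 2P-Im groups overlapped, and no fold against a group listed at 0 is given. The fold between 2P-Im and vehicle was 0.08 ± 0.17 as deposited and 0.25 ± 0.17 scaled. Gm15920 and Gm9855 passed the minimum mean of 1 TPM only through the APP/TAU libraries, so that they differ among the genes tested follows from the minimum.

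Tdg, the parent of Gm9855, was lower in APP/TAU 2P-Im libraries than in most wild type libraries. It was 9.65, 8.10, 9.89, 12.4 and 8.63 TPM in wild type, 8.50, 8.97, 7.71, 10.7 and 7.57 TPM in APP/TAU vehicle, and 7.12, 7.04, 6.44, 8.31 and 4.93 TPM in APP/TAU 2P-Im. The groups overlapped as deposited, with 2 of 5 vehicle and 4 of 5 2P-Im libraries below all wild type libraries. The fold against wild type was -0.14 ± 0.13 with vehicle and -0.47 ± 0.13 with 2P-Im. After median-ratio scaling it was -0.33 ± 0.09 and -0.46 ± 0.09, and all 10 APP/TAU libraries then lay below all wild type libraries. Between 2P-Im and vehicle it was -0.33 ± 0.13 as deposited and -0.13 ± 0.09 scaled.

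The sum of Tdg and Gm9855 was 9.74 ± 1.67 TPM in wild type, 12.2 ± 1.88 TPM with vehicle and 10.6 ± 0.953 TPM with 2P-Im (SD, n = 5 each). Its fold against wild type was 0.30 ± 0.13 with vehicle and 0.13 ± 0.11 with 2P-Im, or 0.11 ± 0.08 and 0.14 ± 0.05 after scaling. The summed TPM, not weighted by length, was thus not lower than in wild type under either scaling. The copy held 0% of the sum in wild type, 28.8% ± 3.14 with vehicle and 36.2% ± 11.7 with 2P-Im. Replicate 5 of the 2P-Im group had the highest share, at 53.6%, together with the lowest Tdg level of all 15 libraries. By length (1194 bases against 2959) the shares were 14.0% ± 1.84 with vehicle and 19.2% ± 8.12 with 2P-Im. The length-weighted pair, in units of parent TPM, was 9.74 ± 1.67 in wild type and 10.12 ± 1.501 with vehicle. With 2P-Im it was 8.33 ± 0.898. By length, the 2P-Im mean was thus below the wild type mean and the vehicle mean was not, and neither difference was tested.

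Other copies of Tdg were searched for by shared 31-base words of its coding sequence, and 4 further processed pseudogenes were found. Tdg-ps, at chr15:82516311-82519278, shared 843 of 1164 words. It was listed at 0 in all 5 wild type libraries, at 0.513 to 0.973 TPM in APP/TAU vehicle and at 0.361 to 0.798 TPM in APP/TAU 2P-Im, and its mean was below the minimum of 1 TPM. Gm5597, on chromosome 7, shared more words (949) and was listed at 0 in all wild type and vehicle libraries and at no more than 0.144 TPM with 2P-Im. Gm5197 reached at most 0.121 TPM in any APP/TAU table library, and AC122846.1 was listed at 0 in all 15. The order of the levels was not the order of the words shared with Tdg, and whether reads of Tdg were assigned to these copies was not tested.

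The genes next to Ndufa12 are of several kinds. Within 1 Mb lie Nr2c1, an orphan nuclear receptor, Vezt, an adherens junction protein, Metap2, a methionine aminopeptidase, Tmcc3, a transmembrane coiled-coil protein of the endoplasmic reticulum, and Plxnc1, the receptor for semaphorin 7A. Their midpoints are 0.0375, 0.223 and 0.332 Mb before (Nr2c1, Vezt, Metap2) and 0.241 and 0.658 Mb after (Tmcc3, Plxnc1) that of Ndufa12. Cfap54, a cilia and flagella protein, lies 1.28 Mb before it, Tdg 11.6 Mb and Gm9855 52.2 Mb.

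Cfap54 was higher in APP/TAU vehicle than in wild type. It was 1.48, 1.21, 1.67, 3.06 and 1.85 TPM in wild type, 4.66, 4.33, 3.88, 4.59 and 3.06 TPM in APP/TAU vehicle, and 2.78, 4.63, 2.66, 3.62 and 4.03 TPM in APP/TAU 2P-Im. All 5 vehicle libraries were above the wild type libraries, the lowest of them only just above wild type replicate 4, and 3 of 5 2P-Im libraries were. The fold was 0.86 ± 0.17 with vehicle and 0.68 ± 0.17 with 2P-Im, and 0.71 ± 0.12 with either after median-ratio scaling. All 10 APP/TAU libraries were above wild type on the scaled levels, where the groups had means of 1.89 ± 0.469, 3.69 ± 0.402 and 3.73 ± 0.770.

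Vezt was 18.5, 14.6, 18.6, 19.4 and 17.5 TPM in wild type, 25.1, 25.4, 21.6, 25.1 and 19.6 TPM in APP/TAU vehicle, and 18.6, 18.6, 16.4, 20.3 and 17.8 TPM in APP/TAU 2P-Im. As deposited, the vehicle group lay above wild type in all 5 libraries, whereas the 2P-Im group shared the wild type range. The lowest vehicle library was at 19.6 and the highest wild type library at 19.4 TPM. On the scaled levels these groups overlapped, with vehicle from 20.0 and wild type up to 20.2. As deposited, 2.00% of genes on other chromosomes were higher with vehicle without overlap. The fold of Vezt was 0.38 ± 0.10 with vehicle and 0.05 ± 0.10 with 2P-Im against wild type, and 0.18 ± 0.05 and 0.06 ± 0.05 scaled.

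The other 4 neighbours overlapped between groups in each of the 3 comparisons. Their folds with vehicle against wild type were 0.20 ± 0.09 for Nr2c1, 0.15 ± 0.11 for Metap2, 0.25 ± 0.11 for Tmcc3 and 0.25 ± 0.13 for Plxnc1, close to the 0.18 of all genes, and ran from -0.05 to 0.06 after scaling. With 2P-Im against wild type they ran from -0.07 (Plxnc1) to 0.09 (Tmcc3). Their mean levels in wild type were 5.01 ± 0.618 TPM for Nr2c1, 30.0 ± 4.02 TPM for Metap2, 17.4 ± 3.63 TPM for Tmcc3 and 12.2 ± 2.27 TPM for Plxnc1 (SD, n = 5 each). Between 2P-Im and vehicle, the folds of these 4 and of Vezt were all below 0 as deposited (-0.13 to -0.33). After scaling, those of Nr2c1, Metap2 and Tmcc3 were 0.06, 0.00 and 0.05 and those of Vezt and Plxnc1 -0.11 each.

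**Figure D3:**
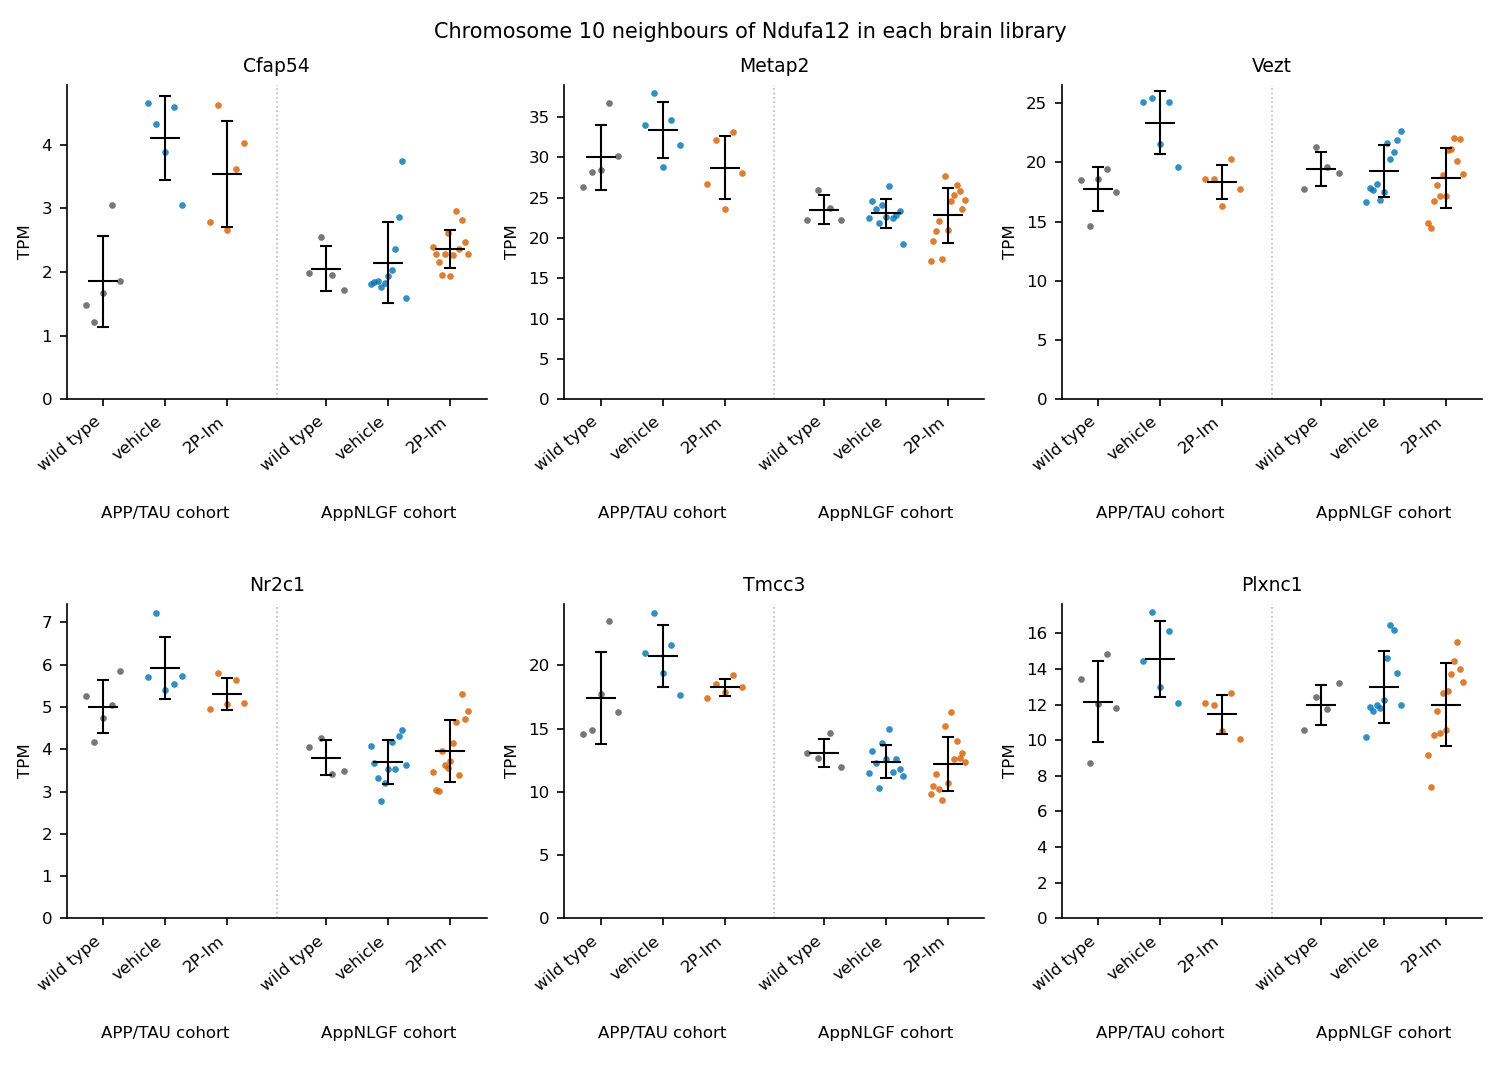
TPM of the 6 chromosome 10 neighbours in each library of the APP/TAU and AppNLGF cohorts, by group, with 1 point per library and a bar at the group mean ± SD. As deposited, the APP/TAU vehicle group lies above the APP/TAU wild type range for Cfap54 and, by a small margin, Vezt. It overlaps that range for Nr2c1, Metap2, Tmcc3 and Plxnc1.

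For APP/TAU vehicle against wild type, limma with Benjamini-Hochberg adjustment over all genes, at an adjusted p below 0.05, called 2 of the 10 members, Gm15920 and Gm9855, where 0.0227% of tested genes were called. The same 2 members were called in APP/TAU 2P-Im against wild type, where again 0.0227% were. In 2P-Im against vehicle, 0 members were called among 0.0% of all genes, with 3 members and 4719 genes at an unadjusted p below 0.05. For vehicle and for 2P-Im against wild type, 7 and 5 members were below that level, beside 4186 and 380 genes. Over all genes tested these are 23.8% (vehicle against wild type), 2.16% (2P-Im against wild type) and 26.8% (2P-Im against vehicle). Because the choice of members rests on these groups, nothing is read from those counts. The median fold of the 8 members that are not copies was 0.23, -0.01 and -0.20 in the 3 comparisons, beside 0.18, -0.01 and -0.19 for all genes. The comparisons with wild type share their wild type libraries.

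**Figure D4:**
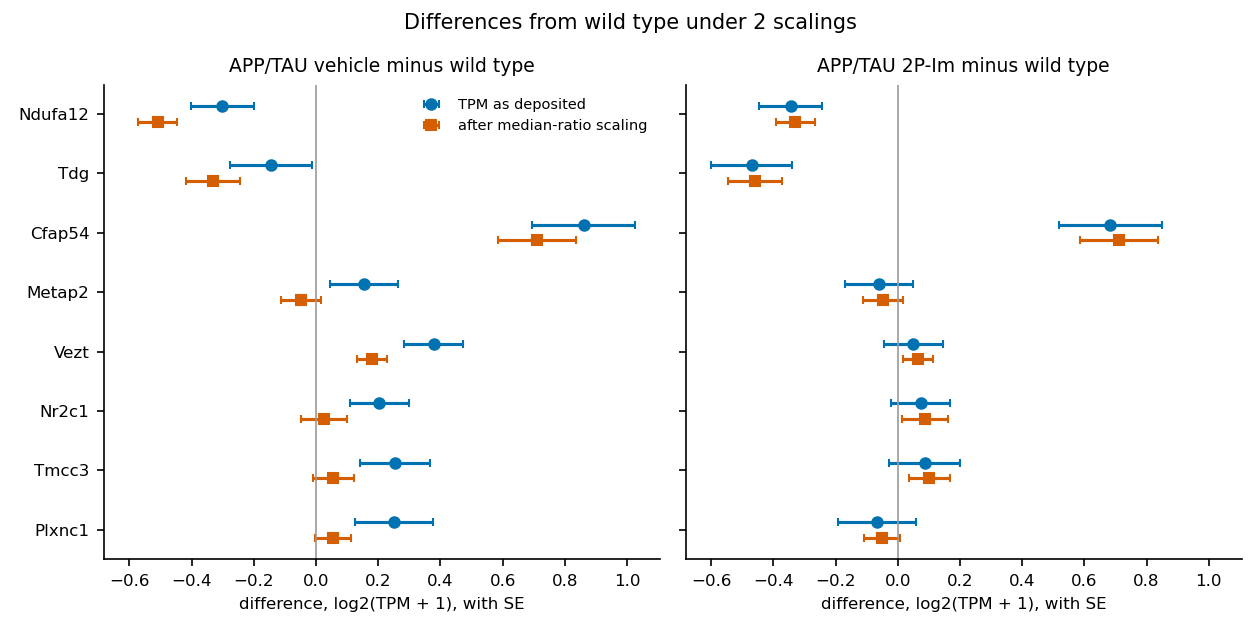
Log2 fold against wild type, with its standard error, of the 8 members that are not copies, for APP/TAU vehicle and APP/TAU 2P-Im, from TPM as deposited and after median-ratio scaling. Scaling lowers the vehicle folds (Ndufa12 from -0.30 to -0.51, Vezt from 0.38 to 0.18) and moves the 2P-Im folds little (Ndufa12 from -0.34 to -0.33).

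Members were set aside here, and they had been chosen by their levels, so the rest does not describe the whole stretch. The other genes within 5 Mb of Ndufa12 had median folds near those of other chromosomes. There were 9 such tested genes within 1 Mb and 35 between 1 and 5 Mb. As deposited, 0 of them were called by limma and 0 had groups that did not overlap, for vehicle or for 2P-Im against wild type. On other chromosomes, 323 genes of 16190 (2.00%) were higher without overlap and 4 were lower with vehicle, and 47 and 19 with 2P-Im, so a count of 0 among so few genes is near that background. At an unadjusted p below 0.05 limma gave 2 of the 9 and 4 of the 35 with vehicle, and 0 with 2P-Im, beside the 23.8% and 2.16% of all genes. From 5 to 10 Mb, 21 of 59 genes were below that level with vehicle and 5 with 2P-Im. From 10 to 20 Mb, 46 of 236 genes and 9 were. As deposited, 2 of the 236 (0.847%) were lower without overlap in each comparison, beside 0.0247% and 0.117% on other chromosomes. After median-ratio scaling, 4 of the 59 (6.78%) were lower without overlap with 2P-Im, beside 0.871%, and 1 with vehicle. No test compared these bins. The median fold with vehicle was 0.15 within 1 Mb and 0.13 from 1 to 5 Mb, beside 0.18 on other chromosomes. With 2P-Im it was -0.02, -0.07 and -0.01. Folds of about the size of that of Cfap54 were seen for 2 short genes with wide errors, named after their values were seen, Gm47993 with vehicle (0.81 ± 0.83) and Gm24241 with 2P-Im (0.81 ± 0.59). After median-ratio scaling, 2 of the non-members within 5 Mb did not overlap between vehicle and wild type. They were Ntn4, which encodes the secreted guidance protein netrin 4, and Nudt4 (-0.12), which encodes a diphosphoinositol polyphosphate phosphohydrolase. On other chromosomes, 1.22% of genes were then higher and 1.04% lower without overlap. Of the 9 genes within 1 Mb, 1 was higher (11.1%), and of the 35 from 1 to 5 Mb, 1 was lower (2.86%). No test compared these counts. Ntn4, 0.516 Mb before Ndufa12, was 5.36 ± 0.627 TPM in wild type, 7.37 ± 1.23 TPM with vehicle and 6.30 ± 0.515 TPM with 2P-Im (SD, n = 5 each). Its fold was 0.39 ± 0.11 with vehicle (limma, adjusted p = 0.121) and 0.20 ± 0.11 with 2P-Im (adjusted p = 1.0) as deposited. After scaling it was 0.21 and 0.22, and all 10 APP/TAU libraries then lay above all wild type libraries.

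**Figure D5:**
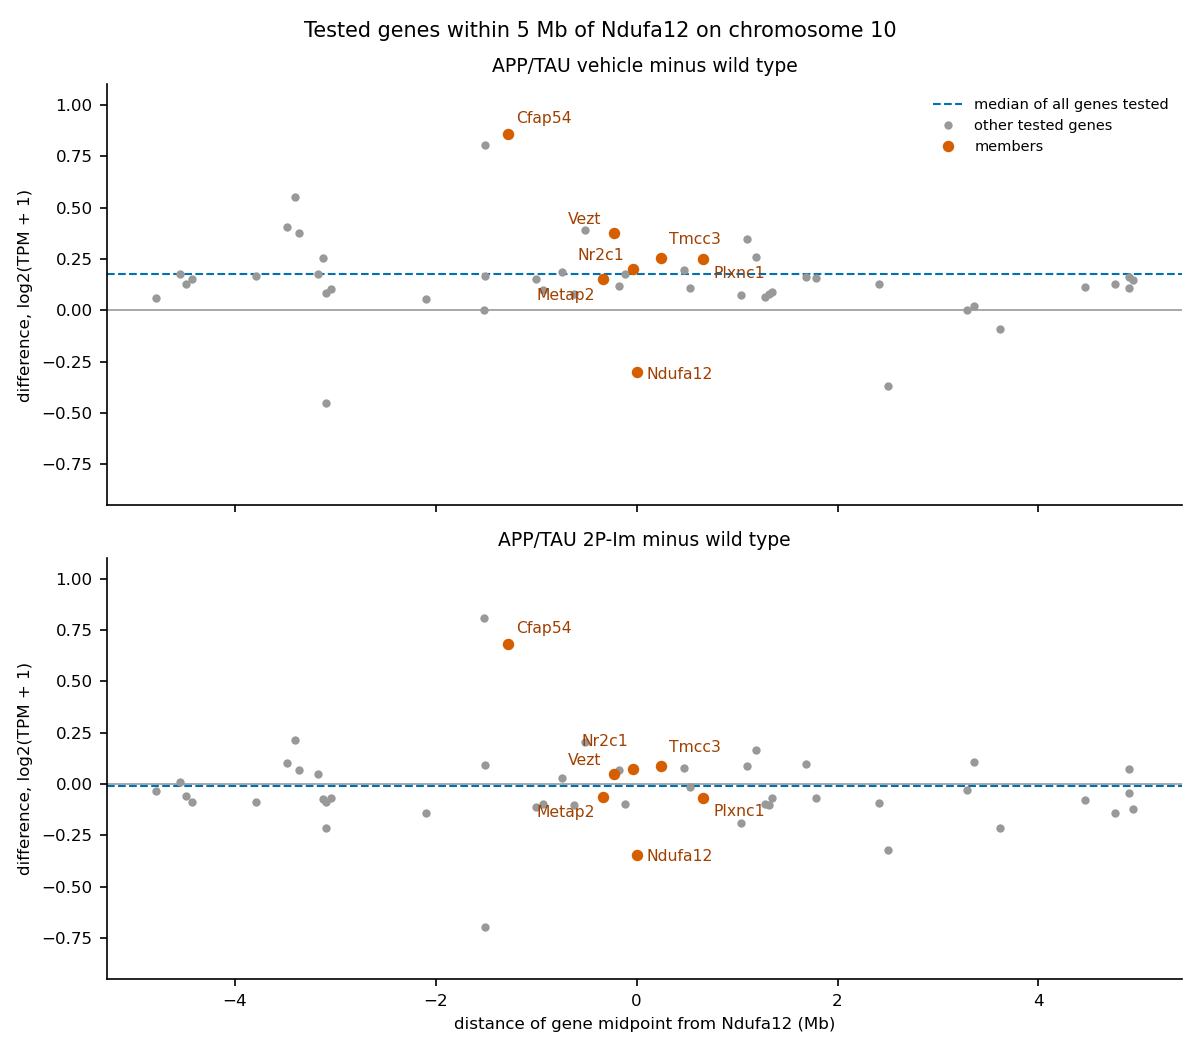
Log2 fold of every tested gene within 5 Mb of Ndufa12 on chromosome 10, for APP/TAU vehicle and APP/TAU 2P-Im against wild type, by signed distance in Mb from Ndufa12, with members named, other genes in grey and a dashed line at the median of all genes tested. Ndufa12 lies at -0.30 and -0.34 and Cfap54 at 0.86 and 0.68, while the genes that are no members have medians, within 1 Mb and from 1 to 5 Mb, between -0.07 and 0.15.

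A wider search took every tested gene for which all 10 APP/TAU libraries lay on 1 side of all 5 wild type libraries. As deposited, 16 genes (0.091%) were higher in all 10, Gm15920 and Gm9855 among them, and 2 genes (0.0114%) were lower. Both members were chosen for this separation, and without them 3 of the 14 higher genes were processed pseudogenes (21.4%), beside 3.79% of all genes tested, and 2 were on chromosome 10 (14.3%), beside 4.92%. Both lower genes, Gm3055 and Gm32687, are on chromosome 10, at chr10:81742821-81771161 and chr10:81863934-81881081, in the stretch just before Tdg, and they are named after their values were seen. Gm3055 was 3.70 to 7.05 TPM in wild type, 2.43 to 3.42 TPM in APP/TAU vehicle and 0 to 2.95 TPM in APP/TAU 2P-Im. Gm32687 was 2.85 to 4.44, 1.55 to 2.67 and 0.500 to 2.49 TPM. After median-ratio scaling, 25 genes (0.142%) were higher, with Cfap54 as the third member, and 29 genes (0.165%) were lower, with Ndufa12 and Tdg. Without the members, 2 of 22 higher genes (9.09%) and 5 of 27 lower genes (18.5%) were on chromosome 10, and 2 of the 22 (9.09%) and 0 of the 27 were processed pseudogenes. Genes that are neighbours or share sequence are not independent of each other, and no test was made of these shares.

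The genes nearest to each profile were found by the root mean square difference, over the 15 APP/TAU libraries, of log2(TPM + 1) minus the wild type mean. Gm9855 was nearest to Gm15920, at 1.57, which follows from the choice of both copies on these libraries. The snoRNA gene Gm25835 followed at 1.88, then the processed pseudogene Gm15387 at 2.10, ENSMUSG00000118698 at 2.12 and Gm43558 at 2.14. For Ndufa12 the nearest were Rabggtb at 0.15, Mier3 and Apln at 0.16 each, and ENSMUSG00000119977 and Gm38146 at 0.16 each. None of these 5 is on chromosome 10 as far as GENCODE M21 gives a position. Rabggtb encodes a subunit of the enzyme that adds a lipid to Rab GTPases and Apln the peptide apelin.

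In the AppNLGF table, both copies were at or near 0 in every group. Gm15920 ranged from 0 to 2.87 TPM with a median of 0.542 in 4 wild type libraries, from 0 to 3.17 TPM with a median of 0.780 in 11 vehicle libraries, and from 0 to 2.90 TPM with a median of 1.19 in 13 2P-Im libraries. It was listed at 0 in 2, 5 and 5 of these, and the 3 groups overlapped throughout. Gm9855 was listed at 0 in all 4 wild type, 10 of 11 vehicle and 11 of 13 2P-Im libraries and did not exceed 0.228 TPM, so it was not tested there. Tdg-ps did not exceed 0.0472 TPM. The tables were normalised separately, and no test was made between them.

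Without a replicate block, the comparisons of the AppNLGF table called 0 of the 9 members tested. A fit with that block, given with the other settings, called Ndufa12, Vezt and Tdg in 2P-Im against wild type, among 3158 genes called lower. Without the block, the shares of all 16776 genes called were 0.28% for vehicle against wild type, 0.262% for 2P-Im against wild type and 0.0536% for 2P-Im against vehicle. At an unadjusted p below 0.05 limma gave 0, 1 and 0 members and 698, 1296 and 1036 genes. Ndufa12 was 115.6 ± 14.3 TPM in wild type (SD, n = 4), 105.7 ± 11.9 TPM with vehicle (n = 11) and 97.1 ± 18.0 TPM with 2P-Im (n = 13). Its fold with 2P-Im was -0.26 ± 0.12 against wild type (adjusted p = 0.644) and -0.14 ± 0.09 against vehicle (limma, adjusted p = 0.778). Tdg was 11.4 ± 0.931, 10.9 ± 1.70 and 10.2 ± 1.45 TPM, with a fold of -0.16 ± 0.11 for 2P-Im against wild type (limma, adjusted p = 0.716). Cfap54 was 2.05 ± 0.356, 2.15 ± 0.637 and 2.37 ± 0.296 TPM, with a fold of 0.14 ± 0.11 for the same comparison (limma, adjusted p = 0.745). The fold of Gm15920 there was 0.21 ± 0.46 (limma, adjusted p = 0.907), and this wide error does not show that it stayed the same.

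The pair sums in the AppNLGF table were tested over libraries, in 4 two-sided tests. The Ndufa12 and Gm15920 sum was 117 ± 13.6 TPM in wild type, 107 ± 12.1 TPM with vehicle and 98.3 ± 18.2 TPM with 2P-Im. Its fold was -0.13 ± 0.10 for vehicle against wild type (exact permutation p = 0.205, adjusted 0.370) and -0.13 ± 0.09 for 2P-Im against vehicle (permutation p = 0.174, adjusted 0.370). The Tdg and Gm9855 sum gave -0.06 ± 0.08 (exact permutation p = 0.564, adjusted 0.564) and -0.09 ± 0.08 (permutation p = 0.277, adjusted 0.370). Copies held 0.902 to 1.25% of the first sum and 0 to 0.202% of the second, as group means.

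The partners of Ndufa12 in complex I were taken as a list of 48 subunits and assembly factors, all tested. Limma called 0 of 48 in each of the 6 comparisons, with 1, 0 and 4 at an unadjusted p below 0.05 in the APP/TAU table (vehicle and 2P-Im against wild type, then 2P-Im against vehicle) and 2, 6 and 1 in the AppNLGF table. Over all genes tested, the shares below that level were 23.8%, 2.16% and 26.8% in the APP/TAU table and 4.16%, 7.73% and 6.18% in the AppNLGF table, and the counts of the lists here and below are to be read against them. The list's median fold for APP/TAU vehicle against wild type was 0.08, beside 0.18 for all genes, and -0.12 beside 0.00 after scaling. For 2P-Im against wild type it was -0.04 beside -0.01. The smallest p in the vehicle comparison belonged to the assembly factor Tmem126b, at 13.4 ± 1.05 TPM with vehicle and 11.3 ± 1.45 TPM in wild type, with a fold of 0.23 ± 0.09 (adjusted p = 0.165) that was 0.04 ± 0.06 after scaling. In 2P-Im against wild type it belonged to the assembly factor Foxred1 (0.26 ± 0.13, limma, adjusted p = 1.0), followed by the subunit Ndufa8 (-0.18 ± 0.10, adjusted p = 1.0).

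Of 19 genes of base excision repair and DNA demethylation, the pathways of Tdg, 14 were tested and 0 were called by limma in any of the 6 comparisons, with 5, 0 and 4 at an unadjusted p below 0.05 in the APP/TAU table and 0, 1 and 1 in the AppNLGF table. Their median fold for APP/TAU vehicle against wild type was 0.20, beside 0.18 for all genes. The DNA ligase gene Lig3 (0.35 ± 0.11, limma, adjusted p = 0.132), the endonuclease gene Apex2 (0.38 ± 0.13, adjusted p = 0.140) and the methylcytosine dioxygenase gene Tet3 (0.33 ± 0.12, adjusted p = 0.153) had the smallest p, and their folds were 0.16, 0.19 and 0.13 after scaling. The 5 and 4 genes below an unadjusted 0.05 among 14 stand beside 23.8% and 26.8% of all genes, and no test compared them. Among 14 paralogs of members, all tested, 0 were called in any comparison, with 7, 0 and 8 at an unadjusted p below 0.05 in the APP/TAU table and 0 in each AppNLGF comparison. In the APP/TAU table, 23.8%, 2.16% and 26.8% of all genes were below that level, and no test compared the list with them. The plexin genes Plxna3 (0.36 ± 0.12, limma, adjusted p = 0.137) and Plxnb2 (0.32 ± 0.12, adjusted p = 0.146) led the vehicle comparison, with 0.18 ± 0.07 and 0.12 ± 0.05 after scaling.

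A list of 16 genes whose brain expression is known to vary between mouse strains was followed because a strain difference would separate wild type from both APP/TAU groups. Of the 11 tested, 0 were called by limma in any of the 6 comparisons, with 4, 2 and 3 at an unadjusted p below 0.05 in the APP/TAU table and 0, 2 and 0 in the AppNLGF table. Beside them, 23.8%, 2.16% and 26.8% of all genes were below that level in the APP/TAU table, and 4.16%, 7.73% and 6.18% in the AppNLGF table. The 3 of 11 for APP/TAU 2P-Im against vehicle were near the share of all genes. The 2 of 11 for 2P-Im against wild type were above it in both tables. No test compared the list with all genes. Wdfy1 was 9.20 ± 0.890 TPM in wild type, 13.6 ± 2.88 TPM with vehicle and 12.4 ± 1.98 TPM with 2P-Im (SD, n = 5 each). Its fold was 0.50 ± 0.13 (limma, adjusted p = 0.121) and 0.38 ± 0.13 (adjusted p = 1.0), or 0.31 ± 0.11 and 0.40 ± 0.11 after scaling. Gabra2, a GABA-A receptor subunit, was 9.46 ± 4.19, 19.5 ± 6.60 and 13.3 ± 5.39 TPM, with folds of 0.99 ± 0.30 (limma, adjusted p = 0.125) and 0.43 ± 0.30 (adjusted p = 1.0). Entpd4 was 34.6 ± 10.4 TPM in wild type, 38.0 ± 8.85 TPM with vehicle and 25.2 ± 1.82 TPM with 2P-Im. The means of the APP/TAU groups thus lay on opposite sides of wild type. Its fold with 2P-Im was -0.40 ± 0.18 against wild type (limma, adjusted p = 1.0). Against vehicle it was -0.55 ± 0.18 (limma, adjusted p = 0.167), or -0.33 ± 0.16 after scaling. Whether the groups differ in strain was not tested by these expression values.

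Marker genes of the labelled tissue were present in both tables, and no marker of neurons, astrocytes, oligodendrocytes, microglia, endothelium, cerebellum or striatum on the lists was at 0 in every library. Mean log2(TPM + 1) of 5 neuron markers was 7.72 ± 0.16 in wild type, 7.94 ± 0.18 with vehicle and 7.66 ± 0.11 with 2P-Im in the APP/TAU table. The 4 cerebellum markers had a mean of 6.46 ± 0.25 in the wild type libraries of the APP/TAU table and 2.47 ± 0.46 in those of the AppNLGF table, and the 4 striatum markers 2.75 ± 0.32 and 5.27 ± 0.15. The tables therefore also differ in these region markers, beside age and genotype, and the part of that in the members' levels was not tested.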

How the data were processed

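Brain total RNA had been made into directional libraries (MGIEasy kit), per the labels' protocols. The authors deposited 1 table of TPM values per cohort, made with Salmon and the GRCm38 (mm10) build according to the submitters' processing notes, with version and annotation not given in the sources used here. Gene rows held 84.9 to 91.4% of each library's TPM, and read depth is unknown. Symbols and positions came from GENCODE M21 (51327 of 55804 gene rows matched). For each table, limma 3.58.1 (R 4.3.3, trend) was fitted to log2(TPM + 1) of genes with a mean of at least 1 TPM (17592 and 16776), with the 3 groups in 1 fit, two-sided, and Benjamini-Hochberg adjustment over all genes tested. The script was first tested on simulated data. Copies were aligned to parent transcripts with Biopython 1.88, and pair sums were compared by permutation (scipy 1.17.1, 100000 resamples where both groups had 10 or more libraries).

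Alternatives were median-ratio scaling, 0.1 TPM as pseudocount, a minimum mean of 5 TPM or none, only the 2 groups compared, a replicate block, and each library left out. Named genes were the 10 members, the 5 nearest profiles of Ndufa12 and Gm15920, non-members within 5 Mb whose vehicle and wild type groups did not overlap, and up to 4 genes of each list by p; other names were added after seeing the data, as was the length-weighted share. The members and lists were chosen with earlier results of these data known.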

Additional observations from a re-analysis of the deposited data

Results flagged for a closer look

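Among 38 groups of 4 to 10 libraries checked for a library that stands apart, 1 was found, and chance alone marks about 1 in 20. Nr2c1 was 7.22 TPM in replicate 2 of APP/TAU vehicle, against 5.40 to 5.73 TPM in the other 4, and its fold against wild type without that library stayed within 0.14 to 0.25, the range over all single libraries left out. Tdg-ps, which was below the minimum mean and in no comparison, was listed at 0 in all 5 wild type libraries and was no lower than 0.513 TPM in any APP/TAU vehicle library and 0.361 TPM in any APP/TAU 2P-Im library. With no minimum mean, limma called it in both comparisons with wild type, as 1 of 6 genes called higher among 32830 tested in each. Tdg-ps entered those tests only through the APP/TAU libraries, where it is above 0, so nothing is read from these calls.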

How the results depend on the processing

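With a minimum mean of 5 TPM, limma called 1 member in place of 2 in both APP/TAU comparisons with wild type, because Gm9855 was then not among the genes tested. Median-ratio scaling changed the fold of the Ndufa12 and Gm15920 sum to -0.18 (vehicle against wild type) and 0.17 (2P-Im against vehicle) and that of the Tdg and Gm9855 sum to 0.031 (2P-Im against vehicle). It raised the number of non-members within 5 Mb of Ndufa12 whose groups did not overlap from 0 to 2 for vehicle and to 2 for 2P-Im against wild type. With this scaling, 1.22% of genes on other chromosomes were higher and 1.04% lower without overlap for vehicle, and 0.760% and 0.871% for 2P-Im. With it, limma also called Ndufa12 as lower in APP/TAU vehicle, for 3 members in all; the members were chosen on these libraries, so none of the APP/TAU counts of called members is evidence about them. Over all settings other than a left-out library, 15 recomputed folds of single members moved by more than the spread between libraries, all in the APP/TAU table, and 3 folds of the AppNLGF table were called anew.

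Same-numbered libraries did not deviate together gene by gene (correlations of -0.056 to 0.087 in the APP/TAU and -0.079 to 0.118 in the AppNLGF table). These correlations leave out a shift shared by all genes of a library. In the AppNLGF table the median-ratio factor was 0.908 to 0.975 in vehicle replicates 1 to 5. It was 1.04 to 1.09 in vehicle replicates 6 to 11. With 2P-Im it was 0.809 to 0.980 in replicates 1 to 5 and 0.884 to 1.13 in replicates 6 to 13. Wild type has replicates 1 to 4 only, at 0.994 to 1.07. What the numbers stand for is not known. A replicate block in the limma fit called 3 members in AppNLGF 2P-Im against wild type. They were Ndufa12 (-0.46, adjusted p = 0.0229), Vezt (-0.24, adjusted p = 0.0336) and Tdg (-0.33, adjusted p = 0.0262). The block called 64 genes higher and 3158 lower there, beside 41 and 3 without it, and the cause was not tested. In the other 2 AppNLGF comparisons it called 16 higher and 13 lower (vehicle against wild type) and 3 and 1 (2P-Im against vehicle), beside 37 and 10, and 8 and 1.

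Leaving out 1 library at a time, 2 to 3 members were called in APP/TAU vehicle against wild type (3 without wild type replicate 4) and 2 in 2P-Im against wild type, and 0 in each of the other 4 comparisons. The fold of the Ndufa12 and Gm15920 sum ran from -0.02 to 0.11 (APP/TAU vehicle against wild type), -0.09 to 0.00 (APP/TAU 2P-Im against vehicle), -0.21 to -0.08 and -0.16 to -0.09 (the same in AppNLGF). That of the Tdg and Gm9855 sum ran from 0.22 to 0.39, -0.22 to -0.10, -0.10 to -0.03 and -0.11 to -0.06.

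Over all AppNLGF genes, median-ratio scaling called 93 higher and 23 lower for vehicle against wild type, 109 and 11 for 2P-Im against wild type, and 41 and 7 for 2P-Im against vehicle. Fitting only the 2 groups compared gave 63 and 16 for the first and 12 and 1 for the second, and a minimum mean of 5 TPM gave 23 and 8, and 25 and 0. In the APP/TAU table, no minimum mean gave 6 genes higher in each comparison with wild type, in place of 4. Depth is unknown, so levels near 0 carry no limit of detection.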

Other observations

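The deposited AppNLGF table also lists 64708 transcript rows, and those of the members are all outside GENCODE's basic set. The 2 Ndufa12 rows had a mean of 3.44 TPM together, beside 103 TPM for the gene row. For Tdg, 9 transcript rows held 10.2 TPM together beside 10.7 TPM for its gene row, and for Cfap54, 8 rows held 2.72 TPM beside 2.24 TPM. Nr2c1, Gm15920 and Gm9855 had 0 such rows. As the Cfap54 transcript rows exceed its gene row, they are not part of it. Each comparison of the text used gene rows only, so levels of parents and shares of copies leave out RNA listed elsewhere. The APP/TAU table lists 0 transcript rows, and its gene rows held 84.9 to 90.8% of TPM. How much RNA of Tdg its gene row there leaves out is unknown.

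Gm25835, a snoRNA gene on chromosome 11 with a profile near that of Gm15920, averaged 16.7 TPM in wild type and 60.5 TPM over the 10 APP/TAU libraries. Gm15387, a processed pseudogene on chromosome 15, averaged 14.2 and 31.3 TPM. Neither separated all 10 APP/TAU libraries from wild type, unlike Gm15920.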
